A study of Mus musculus with 19 samples.

Results

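The transglutaminase genes *Tgm1*, *Tgm2*, *Tgm3* and *Tgm5* were followed in RNA sequencing libraries from the cornea and the conjunctiva of mice on 2 diets, free feeding (ad libitum, AL) and calorie restriction (CR). These 4 genes were taken by symbol from the 24552 genes that each tissue's table held. They were part of a set of 10 genes present there: transglutaminases, their relatives and the carrier subunit *F13b*. The 4 genes were chosen by the normalized counts of *Tgm2* in the cornea, which were lower under CR, so their cornea values are described without a test. The conjunctiva, which that rule did not use, was tested, although earlier results of these data were known when the genes were chosen. The 19 libraries comprised 5 AL and 5 CR corneas and 4 AL and 5 CR conjunctivas of the strain labelled C57BL/6. The study's methods name female C57BL/6J mice, corneal epithelium collected by scraping and surgically excised conjunctiva. For 1 of the study's 2 cohorts the methods describe a CR ration reduced in steps and given once a day before the dark phase. For the other they say only that the restriction was set up gradually. AL animals had food at all times. The titles carry the tags 6M and 50W, which the labels do not define. The series text calls the mice young, whereas the paper describes adult mice restricted for 4 months from the start of middle age. In the cohort with the stepwise ration the restricted mice also ate a chow enriched in vitamins and micronutrients. The labels do not say from which cohort these libraries came. Several tissues were taken from each mouse, and the labels do not say whether a cornea and a conjunctiva library with the same number came from 1 animal, so the tissues may not be independent. Nothing in the labels beyond the numbers says that replicates were separate mice, and p-values measure the spread between these libraries.

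Transglutaminases are calcium-dependent enzymes that join the glutamine side chain of 1 protein to a lysine of another, which makes a bond that proteases do not readily cut. Transglutaminases 1, 3 and 5, encoded by *Tgm1*, *Tgm3* and *Tgm5*, are best known from stratified epithelia, where they crosslink proteins beneath the plasma membrane into the cornified envelope. Transglutaminase 2, encoded by *Tgm2*, is found in many tissues, also binds GTP, and acts outside the cell on fibronectin and other matrix proteins. *Tgm2* is a known retinoic acid target gene. The relatives are *Tgm4* of the prostate, *Tgm6* and *Tgm7*, the clotting factor enzyme subunit *F13a1*, and *Epb42*, a red cell membrane protein that has lost the catalytic cysteine. *F13b*, the carrier subunit of *F13a1*, was listed with them but is not itself a transglutaminase.

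The enzymes attack through a cysteine, and the coding sequence around its codon shows what the 4 genes share. The stretches below, 57 bases each in coding direction, come from the transcripts of GENCODE M21 on the mouse build GRCm38, and capitals mark the codon of the catalytic cysteine or, in *Epb42*, the codon that stands in its place. Each was found as the only place in its coding sequence that encodes a glycine, a glutamine or histidine, any residue, and then tryptophan, valine and phenylalanine.
Tgm2: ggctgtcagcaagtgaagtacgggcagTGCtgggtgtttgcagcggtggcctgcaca
Tgm5: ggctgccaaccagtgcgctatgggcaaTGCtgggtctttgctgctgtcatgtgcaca
Tgm1: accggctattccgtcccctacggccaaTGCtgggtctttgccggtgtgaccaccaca
Tgm3: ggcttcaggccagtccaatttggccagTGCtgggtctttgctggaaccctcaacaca
Epb42: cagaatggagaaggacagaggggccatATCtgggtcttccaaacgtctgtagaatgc
The 4 members carried the same cysteine codon, and the relative *Epb42* carried ATC there. All 4 had the same base at 26 of the 57 positions (45.6%). The closest pair was *Tgm2* and *Tgm5*, identical at 42 positions (73.7%), and *Tgm2* matched *Tgm1* and *Tgm3* at 35 positions each (61.4%). The cysteine was codon 277 of 686 in *Tgm2*, in exon 6 of 13 of the transcript used (chr2:158131359-158131361, minus strand), codon 283 of 724 in *Tgm5* (exon 6 of 13, chr2:121070760-121070762, minus strand), codon 376 of 815 in *Tgm1* (exon 7 of 15, chr14:55709422-55709424, minus strand) and codon 273 of 693 in *Tgm3* (exon 6 of 13, chr2:130029772-130029774, plus strand).

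On the same annotation, *Tgm2* (gene ID 21817) spans chr2:158116402-158146436 on the minus strand, and part of it overlaps the protein-coding gene *Rprd1b* and a non-coding gene on the other strand. *Tgm1* (21816) spans chr14:55700009-55713926 on the minus strand and overlaps an antisense gene. *Tgm3* (21818) spans chr2:130012349-130050399 on the plus strand, upstream of *Tgm6*. *Tgm5* (74176) spans chr2:121046111-121085841 on the minus strand, between *Epb42* and *Tgm7*, and holds a processed pseudogene on the other strand. The use of strand in counting was not settled from the sources, so reads from a member and from a gene on the opposite strand cannot be told apart.

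Each cornea library held between 10354125 and 14681223 counted reads, and each conjunctiva library between 10726717 and 14433441. Unless another scale is named, levels are normalized counts, that is, the reads of a gene divided by the size factor of its library, and 3 reads, the limit that a count of 0 allows, were worth 2.27 to 3.37 of them. Intervals and limits of this kind cover counting error only. The corneal keratin *Krt12* stood at 179800 to 341000 in cornea libraries against 436 to 5139 in conjunctiva libraries, and the goblet cell mucin *Muc5ac* at 0 to 43.3 against 2328 to 6593, as the tissue labels say. The keratins *Krt13* and *Krt4*, listed as conjunctival markers, overlapped between the tissues. *Krt13* ran from 21690 to 48150 in cornea and from 10270 to 40520 in conjunctiva libraries. *Krt4* ran from 2048 to 10720 and from 8790 to 25410. In the cornea, genes with no read made up 38.7% to 40.7% of all genes in the AL libraries other than AL 4 (45.2%), and 42.7% to 47.6% in the CR libraries other than CR 1 (39.9%). Lacrimal gland markers (8 genes of a list of 9 were in the table) summed to 45620 in cornea AL 1, against 131 to 1495 in the other cornea libraries. Of the 7 lacrimal gland markers tested there, 6 had estimates below 0 under CR (median log2 change −3.11), 4 had an unadjusted limma p under 0.05 and 1, *Esp6*, was called lower. Over all genes 18.1% had such a p and 0.472% were called lower. The part of lacrimal gland RNA in the cornea differences was not tested.

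*Tgm2* was by far the most abundant member in both tissues. Per length, as RPKM (reads scaled to library size and to kilobases of exon, computed from the recovered reads), it stood at 143 ± 17.98 (SD, n = 5) in AL corneas and 152 ± 21.02 (n = 4) in AL conjunctivas. *Tgm5* followed at 5.99 ± 0.81 and 7.68 ± 1.94 on the same scale, then *Tgm1* at 3.21 ± 0.70 and 0.767 ± 0.34, and *Tgm3* at 0.0557 ± 0.068 and 0.0913 ± 0.067. The order *Tgm2*, *Tgm5*, *Tgm1*, *Tgm3* held in 9 of 10 cornea and 9 of 9 conjunctiva libraries, the exception being cornea CR 7, in which *Tgm1* lay above *Tgm5*. The neighbours *Tgm5* and *Tgm1* did not overlap in AL corneas (5.05 to 6.90 against 2.51 to 4.34 on this scale) but did in CR corneas (3.85 to 6.55 against 2.70 to 4.81). This scale assumes reads along the whole transcript, which the 2 library kits named in the sources would not both give. By mean normalized count *Tgm2* ranked 234th of all genes in the cornea and 202nd in the conjunctiva. Its reads made up 93.5% to 96.2% of all reads from *Tgm1* to *Tgm7* and *F13a1* in AL corneas and 87.3% to 93.5% in CR corneas, and 88.9% to 93.4% and 85.0% to 90.0% in AL and CR conjunctivas.

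**Figure D1:**
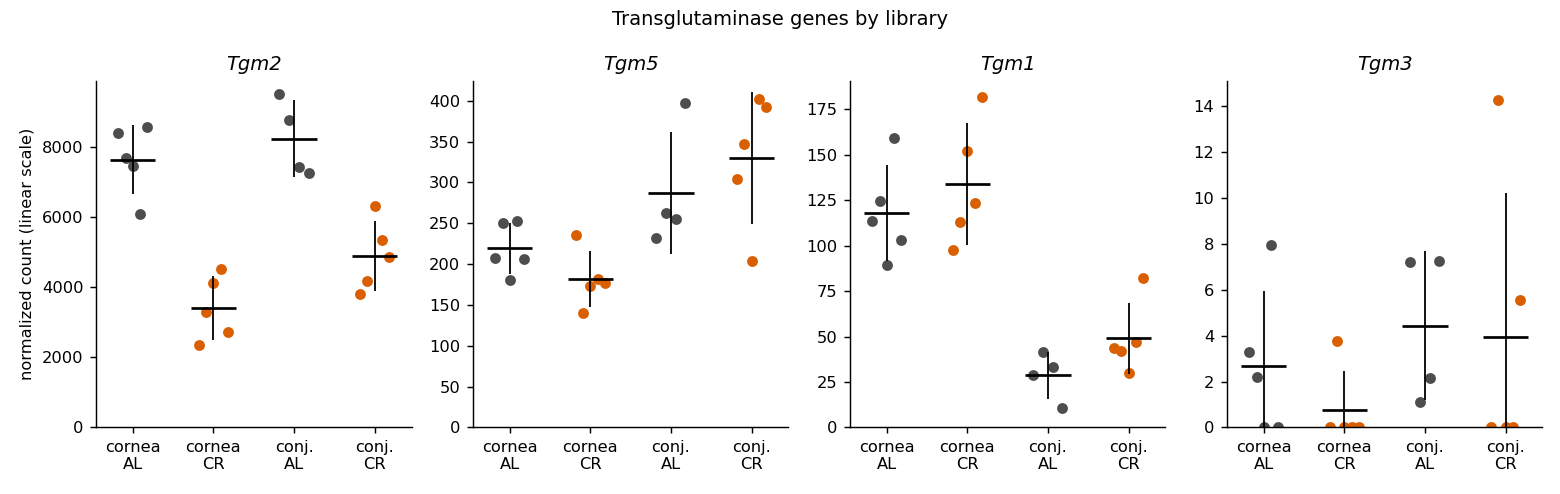
Normalized counts of *Tgm2*, *Tgm5*, *Tgm1* and *Tgm3* (vertical axes, linear, each gene on its own scale) in each library, by tissue and diet (grey AL, orange CR). Points are libraries, horizontal lines are means and vertical lines are SD over 5, 5, 4 and 5 libraries. For *Tgm2* every CR point lies below every AL point of the same tissue, while the AL and CR points of the other 3 genes overlap.

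In the cornea, *Tgm2* stood at 8416, 7695, 7465, 6099 and 8568 normalized counts in AL 1 to AL 5. In CR 1, 2, 3, 4 and 7 it stood at 2343, 3292, 4131, 4527 and 2730. Every CR library lay below every AL library, and the gap between the nearest libraries, AL 4 and CR 4, ran from 6099 to 4527. The mean was 7649 ± 984 (SD, n = 5) under AL and 3404 ± 920 (n = 5) under CR, a log2 change of −1.20 ± 0.16 (SE; 95% interval −1.54 to −0.86), or 2.30 times more under AL. Of 12278 genes tested in the cornea with limma, 1.22% were called changed (Benjamini-Hochberg adjusted p under 0.05 and a fold over 1.5), 18.1% had an unadjusted p under 0.05, and for 3.97% the diets did not overlap (1.89% with all CR libraries lower). Since the *Tgm2* difference chose the genes, no test of a member is read against these shares in the cornea. Of the 2 other members above the filter, one estimate was positive and one negative, both with intervals that include 0.

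*Tgm5*, the transglutaminase whose loss in humans causes peeling of the outer skin, stood in the cornea at 207.9, 250.2, 180.1, 252.9 and 206.0 normalized counts in AL 1 to AL 5. It stood at 235.5, 140.4, 172.7, 181.9 and 177.4 in CR 1, 2, 3, 4 and 7. The groups overlapped, and CR 1 lay above 3 of the 5 AL libraries. The log2 change was −0.28 ± 0.18 (SE; 95% interval −0.65 to 0.09). *Tgm1*, the membrane-bound enzyme lost in lamellar ichthyosis, stood at 113.3, 124.5, 89.5, 159.2 and 103.0 in AL 1 to AL 5. In CR 1, 2, 3, 4 and 7 the same gene stood at 97.5, 113.1, 152.3, 123.6 and 182.0. These values overlapped over most of their range, with a log2 change of 0.17 ± 0.22 (95% interval −0.30 to 0.64). *Tgm3*, best known from hair follicles and epidermis, had 3, 2, 0, 9 and 0 reads in AL 1 to AL 5 and 4 reads in CR 2 alone among the CR libraries. It was below the filter of a mean of 10 normalized counts, so 3 of the 4 members passed it, and at this depth no difference was detectable.

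The conjunctiva asked whether the same genes differed between diets in the tissue next to the cornea. *Tgm2* stood at 9531, 8770, 7440 and 7257 normalized counts in AL 1, 3, 4 and 5. It stood at 3813, 4168, 6334, 5345 and 4859 in CR 1 to CR 5. Again all CR libraries lay below all AL libraries, CR 3 nearest to them. The mean was 8250 ± 1088 (SD, n = 4) under AL and 4904 ± 997 (n = 5) under CR, a log2 change of −0.76 ± 0.16 (SE; 95% interval −1.11 to −0.42), or 1.70 times more under AL. This did not pass the threshold over all genes (limma with Benjamini-Hochberg adjustment, adjusted p = 0.0599, rank 55 of 13929 genes by p). An exact two-sided permutation test of *Tgm2* alone gave p = 0.0159, where the smallest p that the 126 arrangements of 4 and 5 libraries can give is 0.00794. All 4 members were tested that way. In this tissue 0.359% of genes were called changed, 9.4% had an unadjusted limma p under 0.05, and for 3.87% the groups did not overlap (1.95% with all CR libraries lower). None of the 3 members tested was called, 1 had an unadjusted p under 0.05, and 1 did not overlap, in each case *Tgm2*. The call turned on single libraries: without CR 3 *Tgm2* was called lower at −0.86 (limma adjusted p = 0.00883) and without CR 5 at −0.77 (adjusted p = 0.0458), while without any other library the adjusted p ran from 0.0823 to 0.211.

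*Tgm1* in the conjunctiva stood at 28.9, 41.5, 33.3 and 10.9 normalized counts in AL 1, 3, 4 and 5. It stood at 43.8, 41.9, 29.9, 47.1 and 82.0 in CR 1 to CR 5. The groups overlapped through CR 3, and the lowest value, AL 5, rested on 12 reads. The log2 change of 0.82 ± 0.46 (SE; 95% interval −0.15 to 1.79) did not pass (limma adjusted p = 0.608, exact permutation p = 0.0714). *Tgm5* stood at 232.3, 262.6, 255.0 and 397.0 under AL and at 303.9, 347.4, 203.7, 402.6 and 392.3 under CR, in the same library order. Both diets covered almost the same range, and the log2 change was 0.19 ± 0.22 (95% interval −0.28 to 0.66; limma adjusted p = 0.837, exact permutation p = 0.413). *Tgm3* had 9, 1, 2 and 8 reads in the AL libraries and 0, 15, 0, 0 and 5 in the CR libraries. It too was below the filter, and its groups overlapped (exact permutation p = 0.389).

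**Figure D2:**
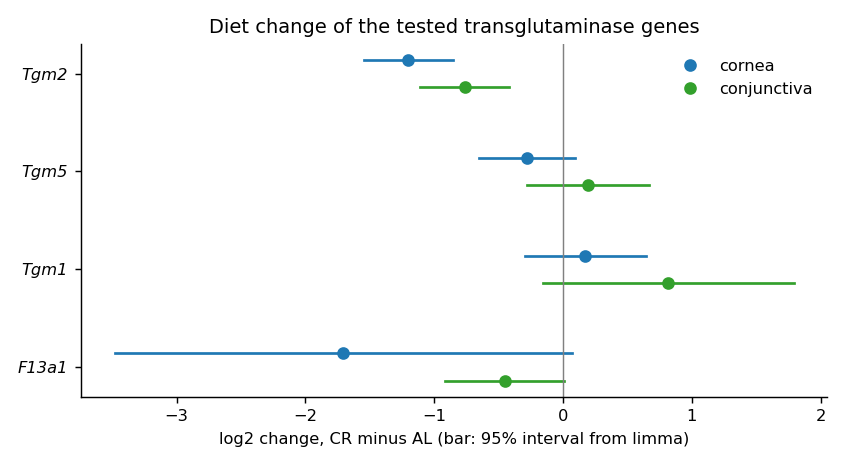
Log2 change between diets (horizontal axis, CR minus AL) of the members above the filter and of *F13a1*, in the cornea (blue) and the conjunctiva (green). Points are limma estimates and bars 95% intervals. The cornea values chose the genes and are shown as a description. In the conjunctiva the bar of *Tgm2* lies between −1.11 and −0.42, and those of the other 3 genes include 0.

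Side by side, the *Tgm2* estimates were −1.20 for the cornea and −0.76 for the conjunctiva, with intervals that overlap, and the difference between tissues was not tested. Each tissue was scaled in its own table, so levels across tissues are given as RPM (recovered reads scaled to library size). On that scale *Tgm2* ran from 525 to 739 in AL corneas, 609 to 821 in AL conjunctivas, 206 to 394 in CR corneas and 316 to 549 in CR conjunctivas. In this order of 4 groups, by mean highest in AL conjunctivas (698), then AL corneas (660), CR conjunctivas (391) and CR corneas (297), each group overlapped its neighbours. As RPM, *Tgm1* lay between 7.92 and 15.2 in corneas and between 0.914 and 6.05 in conjunctivas, with no overlap between the tissues. *Tgm5* lay between 12.1 and 21.8 and between 17.7 and 33.3 on the same scale, with overlap.

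*F13a1*, the enzyme subunit of clotting factor XIII, which macrophages also make, was the only other relative above the filter. In the conjunctiva it stood at 662.4, 319.8, 573.4 and 483.3 normalized counts in AL 1, 3, 4 and 5. It stood at 324.4, 308.4, 466.3, 450.8 and 285.9 in CR 1 to CR 5. These groups overlapped, and the log2 change of −0.45 ± 0.22 (SE) did not pass (limma adjusted p = 0.538, exact permutation p = 0.135). Its level per length in AL conjunctivas, 6.42 ± 1.93 RPKM, overlapped that of *Tgm5*, whereas in AL corneas it was 0.236 ± 0.11. In the cornea its normalized counts ran from 7.07 to 28.4 under AL and from 0 to 9.29 under CR, and the log2 change of −1.71 ± 0.85 did not pass (limma adjusted p = 0.297). *Tgm4* had no read in any cornea library and 14 in all in the conjunctiva, *Tgm6* had 4 reads in 1 AL cornea, and *Tgm7* had 5 reads over 2 AL corneas. *F13b* had no read in either tissue, and *Epb42* had none in the cornea and 14 in the conjunctiva.

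*Tgm2* is also made by stromal, vessel and immune cells, so lists of their markers were set beside it, and in bulk RNA fewer cells of a type and less RNA per cell cannot be told apart. In the cornea the vessel markers *Pecam1*, *Cdh5* and *Kdr* lay at 0 to 13.1, 0 to 3.29 and 0 to 44.8 normalized counts. The 8 endothelial markers summed to 17.7 to 65.5 under AL and 6.13 to 73.4 under CR. The 8 fibroblast markers summed to 929 to 1878 and 425 to 2133, also overlapping. Of 6 tested, 3 had estimates below 0, none was called and 1 had an unadjusted limma p under 0.05 (18.1% of all genes did). The 8 macrophage markers summed to 319 to 416 under AL and 207 to 311 under CR without overlap. All 5 macrophage markers tested had estimates below 0, and 1, the complement gene *C1qa*, was called lower (0.472% of all genes were). The part of these cells in the *Tgm2* difference was not tested.

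In the conjunctiva all 8 markers of each of these lists were above the filter. The fibroblast markers summed to 39460 to 59360 under AL and 26040 to 51700 under CR. All 8 fibroblast estimates were below 0 (median −0.72, against −0.02 over all genes), and 2, *Col1a1* and *Col3a1*, were called lower (0.136% of all genes were). Macrophage markers summed to 3342 to 4361 under AL and 2153 to 3346 under CR. All 8 macrophage estimates were below 0 (median −0.56), 5 at an unadjusted limma p under 0.05 (9.4% of all genes were) and none called. Endothelial markers overlapped (1742 to 2484 under AL, 685 to 2778 under CR), with 7 of 8 estimates below 0 and none called or under 0.05. By library, the fibroblast sums were 58540, 39460, 53660 and 59360 in AL 1, 3, 4 and 5 and 29020, 29480, 42080, 51700 and 26040 in CR 1 to CR 5. CR 3 and CR 4, highest in *Tgm2* among the CR conjunctivas, had the highest CR sums, while AL 3, second in *Tgm2* among the AL conjunctivas, had the lowest AL sum, and AL 5, lowest in *Tgm2*, the highest. The macrophage and endothelial sums were also highest among CR conjunctivas in CR 3 and CR 4 and lowest among AL conjunctivas in AL 3. Among AL conjunctivas both were highest in AL 4. The part of stromal and immune cells in the conjunctiva values of *Tgm2* was not tested.

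**Figure D3:**
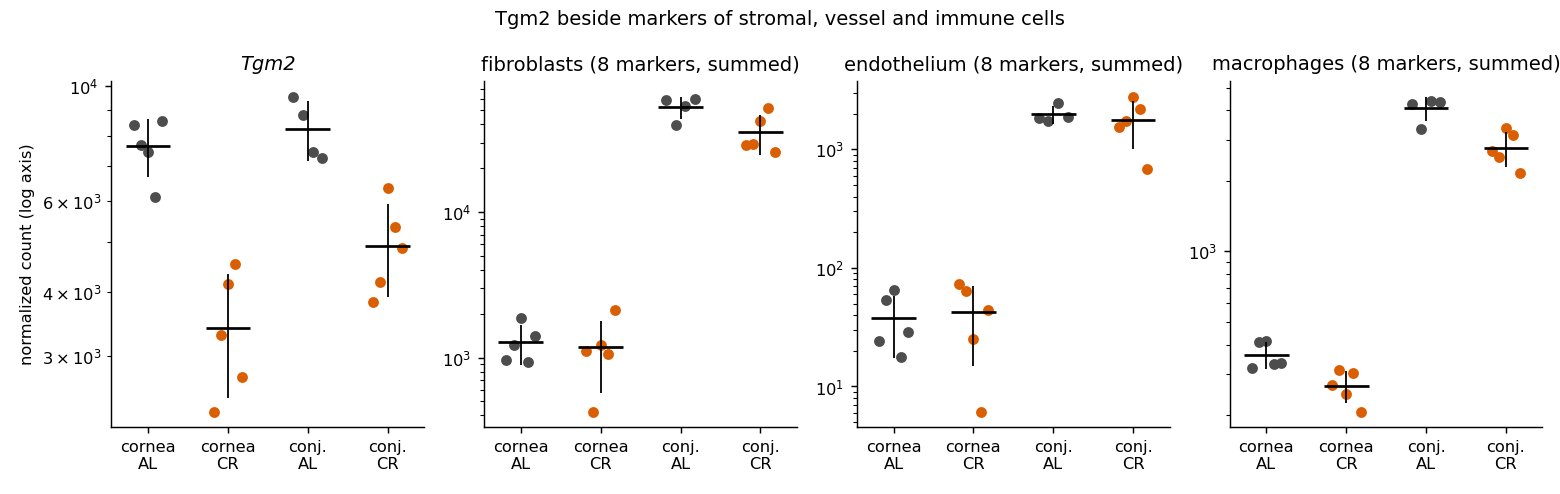
Normalized counts (vertical axes, log scale) of *Tgm2* and of summed fibroblast, endothelial and macrophage markers (8 genes each) by tissue and diet (grey AL, orange CR). Points are libraries, horizontal lines means and vertical lines SD. In the cornea the endothelial sums stay below 74 in every library, and in the conjunctiva the AL and CR sums of all 3 lists overlap.

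The libraries that stood apart were left out in turn for *Tgm2* in the cornea. The log2 change was −1.16 without AL 1, the library rich in lacrimal gland markers, −1.28 without AL 4 and −1.08 without CR 1, the pair whose share of genes with no read was out of line with its diet. With that share as a covariate it was −1.16 ± 0.22 (SE). Over every setting tried it ran from −1.31 to −1.08. Since these cornea values chose the genes, that range is a description and no test. In the conjunctiva the *Tgm2* change ran from −0.90 to −0.68.

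**Figure D4:**
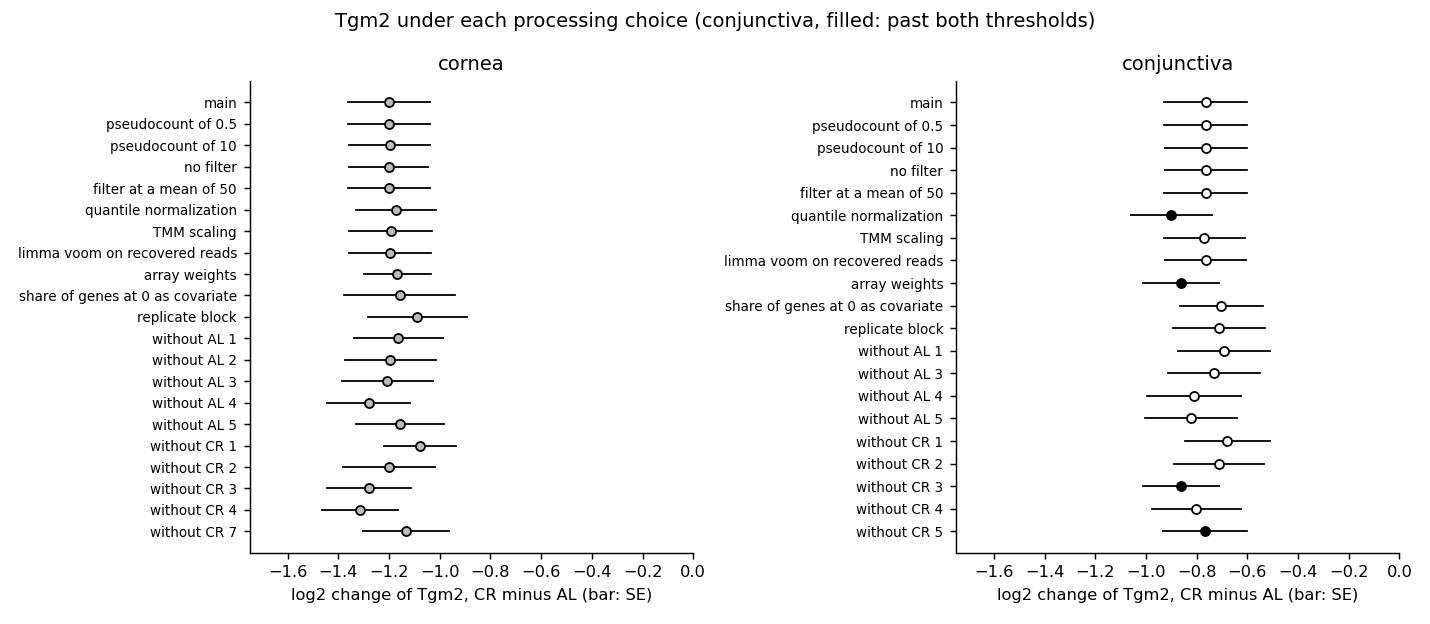
Log2 change of *Tgm2* between diets (horizontal axis, CR minus AL) under each processing choice and with each library left out (vertical axis), in the cornea (left, grey points) and the conjunctiva (right). Bars are SE. Filled conjunctiva points passed both thresholds, which 4 of the 19 alternatives did, and every conjunctiva estimate lies below 0. The cornea values chose the genes and are shown as a description.

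Among genes of the proteins that transglutaminases 1, 3 and 5 crosslink, few passed the test. Of 51 cornified envelope genes listed, 49 were in the table and 17 were above the filter in the cornea. Of those, 1 was called higher and none lower (limma; over all genes 0.749% were called higher and 0.472% lower), 2 were under 0.05 before adjustment (18.1% of all genes were), and the median log2 change was −0.05, against −0.03 over all genes. The gene called was *Anxa1*, annexin A1, an envelope substrate also known as a mediator that restrains inflammation. Its normalized count rose from 2503 ± 338 (SD, n = 5) to 3922 ± 1018 (n = 5) without overlap, by 0.62 ± 0.15 on the log2 scale (SE; limma adjusted p = 0.0448). That call was lost when any 1 of AL 1, AL 2, AL 3, AL 5, CR 3, CR 4 or CR 7 was left out, with a log2 change of at least 0.49 and an adjusted p of at most 0.137. With the share of genes without reads as a covariate it was 0.41 (limma adjusted p = 0.258). The most abundant uncalled members were the desmosomal plakin *Dsp* at 40010 ± 2556 under AL and 35770 ± 3494 under CR, the annexin partner *S100a10* at 12000 ± 1553 and 10460 ± 2620, and periplakin, *Ppl*, at 11620 ± 862 and 11490 ± 1720. In the conjunctiva 18 were tested and none was called (1 at an unadjusted limma p under 0.05, against 9.4% over all genes, median 0.07). *Dsp* stood there at 13540 ± 1992 and 15430 ± 4007.

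The proteases and inhibitors that process transglutaminases and their substrates (cystatins, cathepsins and calpains) held 10 tested genes in each tissue. None was called in the cornea (2 at an unadjusted limma p under 0.05, against 18.1% over all genes, median −0.09). None was called in the conjunctiva either (0 under 0.05, against 9.4% over all genes, median 0.04). The calpain subunit *Capns1*, the most abundant, stood at 10020 ± 371 normalized counts in AL corneas and 9734 ± 903 in CR corneas. Of the barrier lipid and ichthyosis genes, 11 of 18 were tested in the cornea, with a median of −0.08. Of these 11, 2 had an unadjusted limma p under 0.05 (against 18.1% over all genes). In all, 1 was called higher and none lower (0.749% and 0.472% over all genes). That gene was *Casp14*, a protease of the cornifying epidermis, which went from 128.8 ± 58.4 to 257.3 ± 65.3 (log2 change 1.04 ± 0.25, limma adjusted p = 0.0476). Its groups overlapped, and the call was lost when any 1 library other than AL 4 or CR 1 was left out, at an adjusted p of at most 0.146. With the share of genes without reads as a covariate the log2 change was 0.44 (limma adjusted p = 0.426). In the conjunctiva 13 were tested and none was called (2 under 0.05, against 9.4% over all genes, median 0.16). *Casp14* stood there at 36.96 ± 10.5 under AL and 95.9 ± 30.7 under CR, with all CR libraries above all AL libraries, but did not pass (log2 change 1.33 ± 0.35, limma adjusted p = 0.150). The retroviral-like protease *Asprv1* was the most abundant of the list, at 57150 ± 10180 in AL and 52130 ± 8022 in CR corneas.

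Transcription factors of epithelial differentiation had mostly positive estimates in the cornea, where 18 of 23 tested estimates were above 0 (median 0.22, against −0.03 over all genes) and 9 had an unadjusted limma p under 0.05 (against 18.1% of all genes). Of the 23 tested, 1 was called higher and none lower (0.749% and 0.472% over all genes in the cornea). This was *Grhl3*, a grainyhead-like factor known to activate *Tgm1* in the epidermis, which rose from 186 ± 46.6 normalized counts to 486 ± 125, by 1.38 ± 0.19 on the log2 scale (limma adjusted p = 8.95e-04). All CR corneas lay above all AL corneas, and the call held in all 20 alternatives, while *Tgm1* itself went from 117.9 to 133.7. In the conjunctiva *Grhl3* stood at 277.5 ± 78.4 and 265.7 ± 62.7 (log2 change −0.05 ± 0.22). None of 24 factors was called there (6 under 0.05, against 9.4% over all genes, median 0.11). Over all genes 0.223% were called higher and 0.136% lower in that tissue. The difference of *Grhl3* between tissues was not tested. *Klf4*, a factor of barrier formation and the most abundant in the cornea, stood there at 24210 ± 1581 under AL and 28390 ± 1744 under CR.

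Of 30 partners and matrix substrates of transglutaminase 2 tested in the conjunctiva, 7 had an unadjusted limma p under 0.05 (against 9.4% over all genes). Their median log2 change was −0.20. Of these 30, 3 were called lower and none higher (0.136% and 0.223% over all genes). They were *Fbn1*, the microfibril protein fibrillin 1, at 763.9 ± 116 normalized counts under AL and 306 ± 62.7 under CR (−1.33 ± 0.18 on the log2 scale, adjusted p = 0.00282), and the fibrillar collagens *Col3a1* (−1.57, adjusted p = 0.00337) and *Col1a1* (−1.37, adjusted p = 0.00592). Both collagens also stand in the fibroblast list. In the cornea 24 were tested and none was called (8 at an unadjusted limma p under 0.05, against 18.1% over all genes, median −0.03). The most abundant in both tissues was *Anxa2*, annexin A2, at 26370 ± 1291 in AL and 25460 ± 1520 in CR corneas.

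Among retinoid signaling genes, *Dhrs3*, a retinaldehyde reductase that limits retinoic acid formation and is itself induced by retinoic acid, was called lower in both tissues. Over all genes 0.472% were called lower in the cornea and 0.136% in the conjunctiva. Its mean in the cornea was 817 ± 172 normalized counts under AL (SD, n = 5) and 457 ± 48.0 under CR (n = 5), or −0.82 ± 0.14 on the log2 scale (SE; limma adjusted p = 0.00581). Its mean in the conjunctiva was 1452 ± 106 (n = 4) and 954.5 ± 41.9 (n = 5), or −0.60 ± 0.12 on the log2 scale (limma adjusted p = 0.0482). The groups did not overlap in either tissue. The cornea call was lost with the share of genes without reads as a covariate (−0.67, limma adjusted p = 0.0515). The conjunctiva call was lost when any 1 of AL 1, AL 3, AL 4, AL 5, CR 1, CR 2 or CR 4 was left out, at an adjusted p of at most 0.187. No other retinoid gene was called among 15 tested in the cornea (4 at an unadjusted limma p under 0.05, against 18.1% over all genes, median −0.10) and 19 in the conjunctiva (4 under 0.05, against 9.4%, median −0.02).

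TGF-beta signaling genes had 14 of 16 tested estimates above 0 in the cornea (median 0.26 against −0.03 over all genes, 5 at an unadjusted limma p under 0.05 against 18.1%). Of these, 1 was called higher and none lower (0.749% and 0.472% over all genes). *Tgif1*, a corepressor of Smad transcription, rose without overlap from 342 ± 33.1 normalized counts to 527.5 ± 53.3, by 0.62 ± 0.13 on the log2 scale (limma adjusted p = 0.0199). Its call was lost without AL 1, AL 2, AL 5, CR 2 or CR 3, at an adjusted p of at most 0.0810. In the conjunctiva 14 of 19 estimates were below 0 (median −0.11, 2 under 0.05 against 9.4% over all genes) and none was called. The list of NF-kB, interleukin 6, hypoxia and glucocorticoid genes held 21 tested genes in each tissue. In the cornea 2 were called higher and none lower (0.749% and 0.472% over all genes). Of the 21, 6 had an unadjusted limma p under 0.05, against 18.1% over all genes, and the median was 0.10. Both called genes, *Tsc22d3* and *Fkbp5*, are glucocorticoid-induced genes. *Tsc22d3* rose from 494 ± 44.8 to 1051 ± 269, by 1.04 ± 0.18 on the log2 scale (limma adjusted p = 0.00497). *Fkbp5* went from 147 ± 55.0 to 375 ± 117 (log2 change 1.36 ± 0.25, limma adjusted p = 0.0137), with overlapping groups and a call lost without CR 2 (adjusted p = 0.0508) or CR 3 (0.0552). In the conjunctiva none was called (6 under 0.05, against 9.4% over all genes, median −0.07). *Fkbp5* stood there at 317 ± 29.1 and 576 ± 123 (log2 change 0.83 ± 0.18, limma adjusted p = 0.0594).

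**Figure D5:**
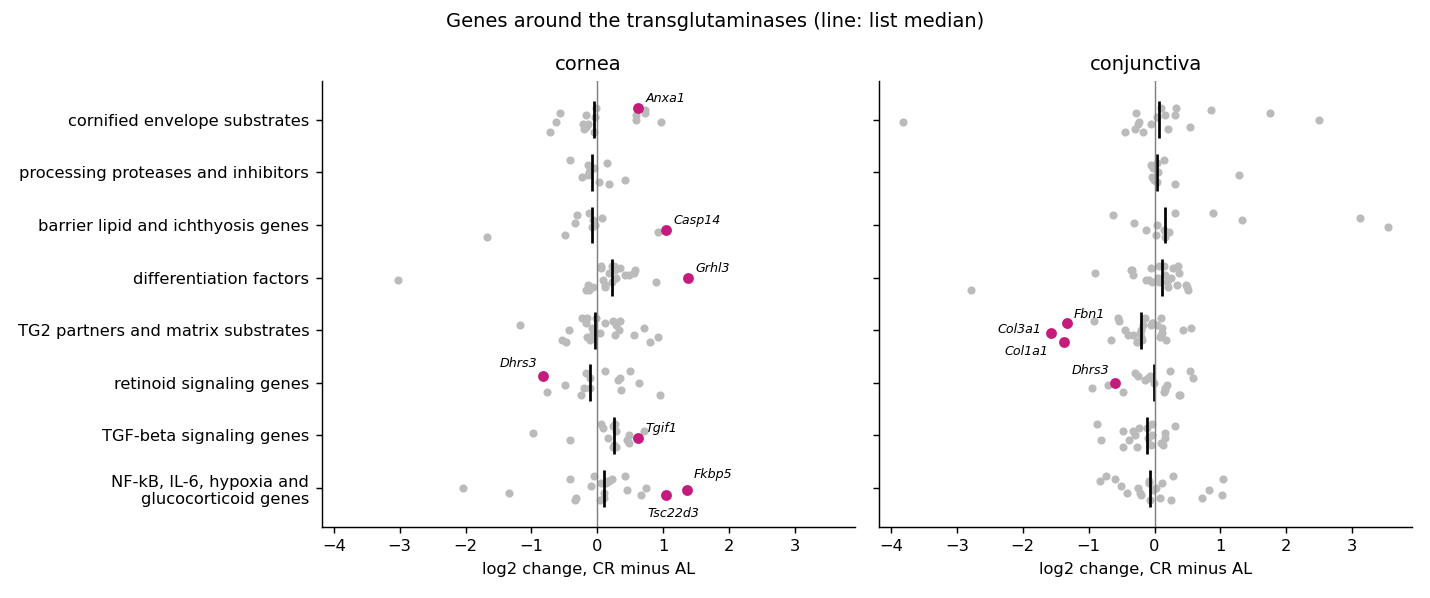
Log2 change between diets (horizontal axes, CR minus AL, same scale in both panels) of the tested genes in 8 lists, in the cornea (left) and the conjunctiva (right). Each point is a gene, coloured and named where called at a limma adjusted p under 0.05 and a fold over 1.5, and black lines are list medians. Called genes lie to the right of 0 in the cornea except *Dhrs3*, and to the left of 0 in the conjunctiva.

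Members were also compared by how they varied from library to library. Over the 19 libraries, with each gene centred on its tissue and diet mean, Pearson's r was 0.01 between *Tgm1* and *Tgm2*, 0.01 between *Tgm1* and *Tgm5* and −0.46 between *Tgm2* and *Tgm5*. These are descriptions over libraries that share tissue, depth and diet. Among 11929 genes tested in both tissues and centred within tissue only, so that diet counts, the genes most like *Tgm2* were the kinase *Stk16* (r = 0.89), the actin-binding gene *Dbnl* (0.89), the tRNA synthetase subunit *Farsb* (0.87), the aldo-keto reductase *Akr1b7* (0.87) and the sorting nexin *Snx3* (0.87). Centred within diet as well, the r of these 5 genes ran from 0.47 to 0.73. Those most like *Tgm5* were *Dsg3*, a desmosomal cadherin of stratified epithelia (r = 0.83, and 0.80 within diet), *Dhx29* (0.80), *Ikzf3* (0.79), *Tshz1* (0.77) and *Cdca3* (0.76). For *Tgm1* they were *Mid2* (0.88), *Ppp2r2a* (0.84), *Aftph* (0.84), *Kansl1* (0.83) and *Prrg4* (0.83). *Tgm3* was below the filter in both tissues and was not compared.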

How the data were processed

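Libraries were grouped by the tissue and treatment in their labels and named by the number in the title. The authors trimmed single reads with cutadapt, aligned them to mm10 with STAR, counted reads per gene with HTSeq and took relative log expression size factors from DESeq2 (versions not given in the sources used here). The submitters' processing notes name GRCm39 instead. The labels name a stranded mRNA kit and the methods an oligo(dT)-primed kit, so library type and strand use were not settled. The deposited values are log2 of the count over the size factor, plus 1, in a table per tissue. They were turned back into whole reads (100% came out whole, tolerance 0.01). Of 24557 features, 5 repeated symbols were left out, and 483 carried no gene ID.

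Diets were compared within a tissue with limma 3.58.1 (statmod 1.5.0, R 4.3.3; trend, robust) on log2(normalized count + 1), for genes with a mean of at least 10. This scale understates changes of low genes. Calls needed a Benjamini-Hochberg adjusted p under 0.05 and a fold over 1.5. Members were also compared 1 at a time on the log2 scale by two-sided exact permutation. The planned count model was not run because the unit is log2, and limma voom on recovered reads was an alternative. The procedure was tested on simulated data. Named were the members, up to 4 genes per list and tissue (called genes first, otherwise the most abundant, of which the text gives some) and the 5 genes most correlated with each member, plus *Grhl3*, *Casp14* and *Fkbp5* in the conjunctiva, set beside their cornea values. The members and lists were chosen with earlier results of these data known. No batch is given in the labels. Sequences and positions are from GENCODE M21 on GRCm38, the assembly of mm10.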

Additional observations from a re-analysis of the deposited data

Results flagged for a closer look

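Among 16 groups of libraries examined (4 members in 4 groups), 1 held a library that stood apart from the rest. *Tgm3* in cornea CR 2 was at 3.77 normalized counts, from 4 reads, while the other 4 CR corneas were at 0. With the others all at 0, any library with a read would have stood apart, so this says only that 4 reads were found there.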

How the results depend on the processing

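Over the 20 alternatives *Tgm2* in the cornea ran from −1.20 to −1.09 by processing and from −1.31 to −1.08 leaving out a library. These refits use the values that chose the genes, so they describe the estimate and do not test it. *Tgm5* in the cornea ran from −0.38 to −0.19. *Tgm1* in the cornea moved from 0.17 to −0.17 with each library's percentage of genes lacking reads as a covariate, and *Tgm5* in the conjunctiva from 0.19 to −0.086. *Tgm2* in the conjunctiva was also called with quantile normalization (−0.90, limma adjusted p = 0.0147) and array weights (−0.86, 0.00505). Leaving out a library gave −0.86 to −0.68, called without CR 3 (−0.86) and CR 5 (−0.77). Over all alternatives its adjusted p ran from 0.00505 to 0.295. *Tgm1* in the conjunctiva ran from 0.43 to 1.04 and was not tested at a filter of 50. No setting moved the median of all genes by over 0.1. Causes of these shifts were not tested.

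The cornea count of called genes, 150, became 99 with voom, 705 with array weights and 62 with the covariate. Leaving out a library gave 53 to 536: 66, 59, 62, 536 and 53 without AL 1 to AL 5, and 309, 67 and 58 without CR 1 to CR 3. The conjunctiva count, 50, became 149 with array weights and 26 to 127 leaving out a library: 27, 29 and 32 without AL 1, AL 4 and AL 5, and 28, 26, 127 and 76 without CR 1, CR 2, CR 3 and CR 5.

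Within a tissue, AL and CR libraries of the same number did not deviate together (r from −0.297 to 0.288, only cornea number 1 correlating best with its own number). Whether a cornea and a conjunctiva library of the same number deviate together was not examined. With the replicate block 46 genes were called in the cornea and 10 in the conjunctiva, and *Tgm2* was −1.09 and −0.71 (limma adjusted p = 0.295 in the conjunctiva). The block ended the calls of *Anxa1*, *Casp14*, *Tgif1*, *Fbn1* (−1.30, 0.0665), *Col1a1* (−1.24, 0.0929), *Col3a1* (−1.47, 0.0665) and of *Dhrs3* in both tissues (0.0877 in the cornea, 0.281 in the conjunctiva). The covariate ended those of *Anxa1*, *Casp14*, *Tgif1* and cornea *Dhrs3* (0.0515), no filter those of *Anxa1*, *Casp14* and conjunctiva *Dhrs3*, voom those of *Anxa1* and *Casp14*, and quantile normalization that of *Anxa1*. *Grhl3* and *Tsc22d3* kept theirs in all 20 alternatives.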
